A study of Mus musculus with 7 samples.

Results

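Glycine is, with succinyl-CoA, the substrate from which the aminolevulinic acid synthases ALAS1 and ALAS2 start heme. The genes described here are 10 enzymes and carriers that make, use or move glycine, listed by name from their known roles. Earlier results of these data were known when they were chosen. They are Shmt1, Shmt2, Gldc, Amt, Gcsh, Gnmt, Agxt, Glyat, Slc25a38 and Phgdh. Values were given for 9 of these 10 among the 12151 genes of the table, and all 9 were among the 12105 genes that reached the expression filter. The expression of Phgdh is not analysed here, and only its promoter window is included below.

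The libraries were made from total RNA of hepatocytes isolated from mouse liver, 4 from ALAS1/2-KO mice and 3 from wild-type (WT) mice. The ALAS1/2-KO group carries an Alas1 allele whose exons 4 and 5 are lost when Cre acts, a tamoxifen treatment, and a GalNAc-coupled siRNA against Alas2, which hepatocytes take up. The labels give no treatment for the WT group, so the allele, tamoxifen and the siRNA cannot be told apart. The cells in which the Cre acts, the age and sex of the mice, and whether each library is a separate mouse are not stated in the labels.

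Liver handles much of the glycine of the body. Serine hydroxymethyltransferases turn serine into glycine and pass the released carbon unit to folate, SHMT1 in the cytosol and SHMT2 in mitochondria. The mitochondrial glycine cleavage system breaks glycine down, while GNMT, AGXT and GLYAT use it as a methyl acceptor, make it from glyoxylate, and join it to acyl groups such as benzoyl. SLC25A38 carries glycine into mitochondria, where ALAS acts, and PHGDH opens serine synthesis from a glycolytic intermediate.

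The reads listed per library ran from 27933939 to 30195635 in ALAS1/2-KO and from 22916097 to 34048680 in WT. Values are CPM, reads relative to a library size that the authors had scaled. Alas2 stood at 0.333, 0.8, 0.428 and 0.198 CPM in ALAS1/2-KO replicates 1 to 4 and at 16.9, 10.3 and 6.65 CPM in WT replicates 1 to 3, a fall that passed the test (log2 fold change -4.51, SE 0.46, limma adjusted p = 0.0027). Alas2 is the red cell form of the enzyme, and the 4 listed of 7 red cell markers, all globin genes, summed to 3.57, 6.52, 2.75 and 7.39 CPM in ALAS1/2-KO replicates 1 to 4 and 21.5, 41.3 and 11.3 CPM in WT replicates 1 to 3, with a median log2 fold change of -2.28. Their part in the Alas2 value was not tested. Alas1 had 287, 332, 307 and 361 CPM in ALAS1/2-KO, against 279.5, 265 and 83.5 CPM in WT. It averaged 322 ± 31.7 CPM in ALAS1/2-KO and 209 ± 109 CPM in WT (SD, n = 4 and 3). Alas1 did not pass the test (log2 fold change 0.8, limma adjusted p = 0.277). Every ALAS1/2-KO library lay above every WT library, as for 11.3% of all genes tested. Without WT replicate 3 the log2 fold change was 0.24. As a value for the whole gene, the Alas1 level does not check the loss of 2 exons. Of 10 defining hepatocyte genes 9 were listed (Tf is not analysed here), with a median log2 fold change of 0.29. Their summed level was 79208 to 85450.2 CPM in ALAS1/2-KO and 119080.1 to 126398 CPM in WT, a gap that lay in Alb, the only 1 of the 9 called, at 53409 CPM in ALAS1/2-KO and 97897 CPM in WT on average. Without Alb, left out after its values were seen, the other 8 summed to 28852 to 30479 CPM in ALAS1/2-KO and 25126 to 26189 CPM in WT. Kupffer cell markers, genes of the liver macrophages (8 of 8 listed), summed to 199 and 594 CPM in ALAS1/2-KO replicates 1 and 2, to 1282 and 1183 CPM in ALAS1/2-KO replicates 3 and 4, and to 761 to 1064 CPM in WT.

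No glycine gene of the 9 passed the test between the groups, and the largest differences of the means were 1.49-fold higher for Gldc, 1.48-fold higher for Gnmt and 0.754-fold for Glyat. Limma on log2 CPM with Benjamini-Hochberg adjustment over 12105 genes called 0 of 9, as did limma voom on the recovered reads, where 5.1% (2.91% higher and 2.19% lower) and 5.24% of all genes tested were called. At an unadjusted limma p under 0.05, 1 of 9 passed, which was Glyat, against 23.7% of all genes. Not 1 of the 9 had groups without overlap, against 22.7% of all genes. Of the 9, 6 had a higher mean in ALAS1/2-KO, against 48% of all genes, and the median log2 fold change was 0.09, against -0.02 over all genes. With CPM rescaled to the listed reads of each library, which moves the median of all genes to 0.32, 3 of 9 passed, against 22.6% of all genes. These were Gnmt, Shmt1 and Shmt2, at 0.59, 0.29 and 0.18 relative to that median (limma adjusted p = 0.0274, 0.0295 and 0.0281).

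**Figure D1:**
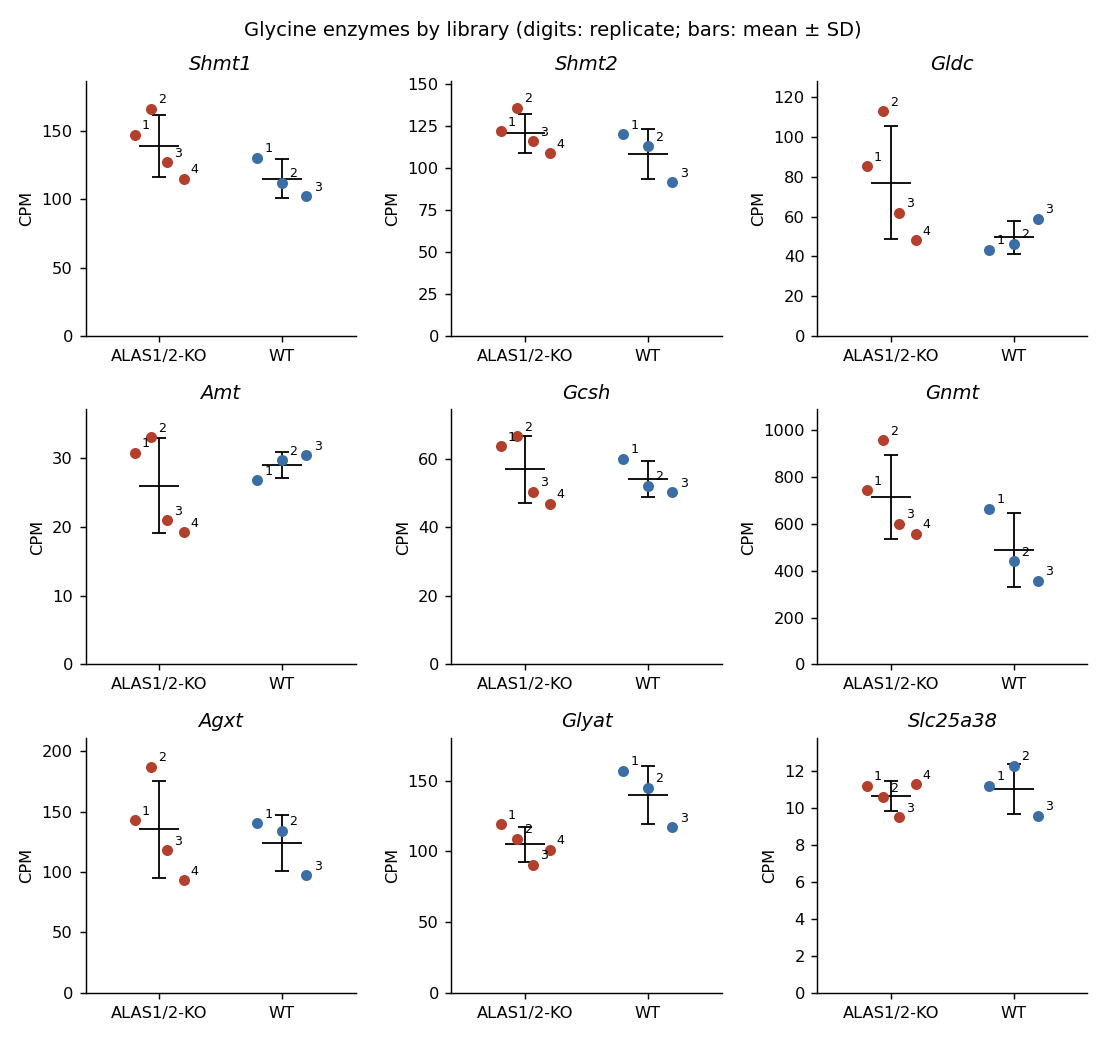
CPM of each glycine gene (vertical axis, from 0) in every library, with ALAS1/2-KO left in red, WT right in blue, digits for the replicate number and black bars for the mean ± SD. In every panel the values of the groups overlap, and ALAS1/2-KO replicate 2 is the highest ALAS1/2-KO point for 7 of the 9 genes.

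Both serine hydroxymethyltransferases were slightly higher on average in ALAS1/2-KO, within the spread of the libraries. Shmt1, the cytosolic enzyme (ENSMUSG00000020534.14, chromosome 11, 60788104 to 60811718, mm10, minus strand), had 147, 166, 127 and 115 CPM in ALAS1/2-KO replicates 1 to 4, against 130.3, 112 and 102 CPM in WT replicates 1 to 3. ALAS1/2-KO replicates 1 and 2 lay above every WT library and replicates 3 and 4 lay within the WT range. ALAS1/2-KO replicates 1 and 2 were also the libraries with the lowest Kupffer cell marker sums, whose part in this and the following results was not tested. Its log2 fold change was 0.27 (SE 0.15, 95% interval -0.07 to 0.61, limma adjusted p = 0.307). Shmt2, the mitochondrial enzyme (ENSMUSG00000025403.5, chromosome 10, 127517123 to 127522444, minus strand), had 122, 136, 116 and 109 CPM in ALAS1/2-KO, against 120.3, 113 and 91.8 CPM in WT. Here too only ALAS1/2-KO replicates 1 and 2 exceeded every WT library, replicate 1 by a small margin. The Shmt2 log2 fold change was 0.16 (SE 0.13, 95% interval -0.13 to 0.45, limma adjusted p = 0.476), an interval that reaches 1.37-fold at its upper end.

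The Shmt1/Shmt2 ratio of CPM was 1.2, 1.21, 1.1 and 1.06 in ALAS1/2-KO and 1.08, 0.984 and 1.11 in WT. The mean log2 ratio differed by 0.11 (exact two-sided permutation p = 0.257, adjusted p = 0.257 over 7 ratios), and the groups overlapped. Exons of Shmt1 share 184 nt with Smcr8 on the opposite strand, which had a mean of 17 CPM, and those of Shmt2 share 32 nt with Ndufa4l2. Whether the counting used strand is not given, so reads in these stretches cannot be told apart.

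The glycine cleavage system splits glycine in mitochondria through a decarboxylase (Gldc), an aminomethyltransferase (Amt) and a carrier protein with a lipoyl arm (Gcsh). None of the 3 subunit genes passed the test. Of the 7 ratios computed, only that of Gldc to Amt did not overlap between the groups, and it did not pass after adjustment (exact permutation adjusted p = 0.167). How often ratios of other genes show no overlap was not computed. Gldc (ENSMUSG00000024827.10, chromosome 19, 30098447 to 30175429, minus strand) had 85.3, 113, 62 and 48.1 CPM in ALAS1/2-KO, against 43.4, 46.4 and 58.9 CPM in WT. ALAS1/2-KO replicates 1, 2 and 3 lay above every WT library and replicate 4 lay inside the WT range. The ALAS1/2-KO libraries with the most Gldc were again those with the lowest Kupffer sums. Within them, Gldc was highest in replicate 2 but the Kupffer sum was lowest in replicate 1. The Kupffer sum was 881, 761 and 1064 CPM in WT replicates 1 to 3. In WT, Gldc and Amt were highest in replicate 3, while the other glycine genes were lowest there. The Gldc log2 fold change was 0.57 (SE 0.28, 95% interval -0.08 to 1.23, limma adjusted p = 0.262), and within ALAS1/2-KO the highest library stood 2.35-fold above the lowest, the widest span of the 9 genes.

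Amt (ENSMUSG00000032607.12, chromosome 9, 108296853 to 108302302, plus strand) had 30.8, 33, 21 and 19.2 CPM in ALAS1/2-KO, against 26.8, 29.7 and 30.4 CPM in WT. The ALAS1/2-KO libraries fell on both sides of WT, replicates 1 and 2, with Kupffer sums of 199 and 594 CPM, above every WT library and replicates 3 and 4, with 1282 and 1183 CPM, below every one. The log2 fold change was -0.19 (SE 0.20, 95% interval -0.65 to 0.26, limma adjusted p = 0.589). With ALAS1/2-KO replicates 1 and 2 left out, Amt fell by 0.53 on the log2 scale and passed the test (limma adjusted p = 0.026), the only one of the 9 to do so in that fit. A fall was fixed by that choice, since both ALAS1/2-KO libraries kept lay below every WT library. In the same fit 1130 of the 12105 genes tested were called. Gcsh (ENSMUSG00000034424.5, chromosome 8, 116981810 to 116993537, minus strand) had 63.8, 66.7, 50.5 and 47 CPM in ALAS1/2-KO, against 60.1, 52.2 and 50.3 CPM in WT, with a log2 fold change of 0.06 (SE 0.15, 95% interval -0.27 to 0.39, limma adjusted p = 0.835).

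Every ALAS1/2-KO library had more Gldc per Amt than any WT library. The Gldc/Amt ratio of CPM, not corrected for transcript length, was 2.77, 3.43, 2.95 and 2.51 in ALAS1/2-KO and 1.62, 1.56 and 1.94 in WT. The mean ratio was 1.7-fold higher in ALAS1/2-KO (log2 difference 0.77, SD 0.19 and 0.17, n = 4 and 3, exact two-sided permutation p = 0.0286, the smallest that 35 regroupings can give). It did not pass after adjustment over the 7 ratios computed (adjusted p = 0.167). A ratio within a library does not depend on how the library was scaled. The Gldc/Gcsh ratio was 1.34, 1.69, 1.23 and 1.02 in ALAS1/2-KO and 0.723, 0.889 and 1.17 in WT (exact permutation p = 0.114, adjusted p = 0.167), with ALAS1/2-KO replicate 4 below WT replicate 3. The Amt/Gcsh ratio was 0.483, 0.494, 0.417 and 0.407 in ALAS1/2-KO and 0.447, 0.569 and 0.604 in WT (exact permutation p = 0.143, adjusted p = 0.167), with WT replicate 1 among the ALAS1/2-KO values.

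**Figure D2:**
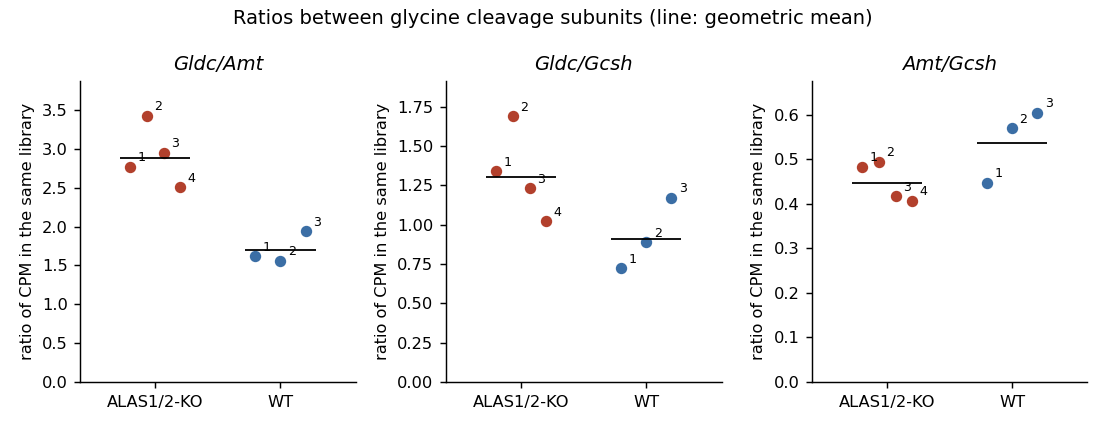
Ratios of CPM between glycine cleavage subunits in the same library (vertical axis, from 0), with ALAS1/2-KO left in red, WT right in blue, digits for the replicate and a line at the geometric mean. The Gldc/Amt points lie between 2.51 and 3.43 in ALAS1/2-KO and between 1.56 and 1.94 in WT, while the points of the other 2 ratios overlap.

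The sequences just before the start of Gldc and Amt are shown because these are the pair whose ratio separated the groups, with those of Gnmt, the most abundant of the 9, and Glyat, the gene with the smallest p. They come from RefSeq promoters of GRCm38.p6, the build also called mm10, and each ends just before the first base of the gene in RefSeq or GENCODE M21, whichever lies further upstream. Each is written 5′ to 3′ on the strand of its gene, and capitals mark CCAAT, or its reverse complement ATTGG, the box bound by NF-Y.
Gldc, chr19:30175442-30175691, minus strand: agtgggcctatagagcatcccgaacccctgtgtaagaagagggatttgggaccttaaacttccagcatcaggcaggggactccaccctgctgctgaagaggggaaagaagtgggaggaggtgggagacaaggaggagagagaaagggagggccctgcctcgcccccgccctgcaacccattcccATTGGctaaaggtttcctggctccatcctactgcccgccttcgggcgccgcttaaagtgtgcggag
Amt, chr9:108296655-108296852, plus strand: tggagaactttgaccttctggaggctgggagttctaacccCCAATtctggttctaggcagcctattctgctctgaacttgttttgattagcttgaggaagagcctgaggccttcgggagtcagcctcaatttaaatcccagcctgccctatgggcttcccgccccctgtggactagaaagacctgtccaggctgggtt
Gnmt, chr17:46729169-46729415, minus strand: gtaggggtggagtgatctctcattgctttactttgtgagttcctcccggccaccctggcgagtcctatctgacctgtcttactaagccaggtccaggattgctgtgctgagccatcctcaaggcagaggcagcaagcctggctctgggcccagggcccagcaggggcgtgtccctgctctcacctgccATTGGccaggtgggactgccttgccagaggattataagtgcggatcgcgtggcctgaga
Glyat, chr19:12633058-12633307, plus strand: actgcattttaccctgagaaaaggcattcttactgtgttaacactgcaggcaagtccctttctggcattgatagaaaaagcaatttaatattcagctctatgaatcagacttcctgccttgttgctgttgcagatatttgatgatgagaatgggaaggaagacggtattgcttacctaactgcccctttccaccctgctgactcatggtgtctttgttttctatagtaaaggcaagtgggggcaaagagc

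All 10 genes of the list, Phgdh included, had a RefSeq promoter window of 300 bases, from 250 before to 50 after the start, and both strands were searched. CCAAT, a motif added after the sequences had been read, was in 6 of the 10 windows, that of Phgdh among them, against 37.4% of 32851 windows of all genes. In the Gldc and Gnmt sequences printed above it lies as ATTGG close to the start, from base -66 to -62 and from -62 to -58, counted from the RefSeq start. In Amt it lies at -210 to -206, and Glyat has none in its window. TGATGCA, a core bound by ATF4, CACGTG, the E-box of clock and MYC factors, and GTTAAT, a part of the HNF1 site, were in 0 of the 10 windows, against 3.15%, 7.15% and 7.1% of all. A match or its absence describes these letters in this window only.

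Among the enzymes that use glycine or make it from glyoxylate, the mean of Gnmt was higher in ALAS1/2-KO, that of Glyat lower and that of Agxt close to WT, and none of the 3 passed. Gnmt, glycine N-methyltransferase, which uses up surplus methyl groups by making sarcosine (ENSMUSG00000002769.9, chromosome 17, 46725664 to 46729168, minus strand), had 743, 957, 600 and 557 CPM in ALAS1/2-KO, against 664, 440 and 357 CPM in WT. Replicates 1 and 2 of ALAS1/2-KO, the libraries low in Kupffer markers, lay above every WT library, and WT replicate 1 lay above ALAS1/2-KO replicates 3 and 4. Its log2 fold change was 0.57 (SE 0.25, 95% interval -0.01 to 1.15, limma adjusted p = 0.219). Gnmt supplied 50.2 to 53.8% of the summed CPM of the 9 genes in ALAS1/2-KO and 39 to 49.1% in WT.

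Agxt, the alanine-glyoxylate aminotransferase that makes glycine from glyoxylate (ENSMUSG00000026272.6, chromosome 1, 93135240 to 93145421, plus strand), had 143, 187, 118 and 93 CPM in ALAS1/2-KO, against 140.5, 134 and 97.5 CPM in WT. The ALAS1/2-KO libraries spanned the whole WT range and beyond it on both sides (log2 fold change 0.09, SE 0.24, 95% interval -0.46 to 0.64, limma adjusted p = 0.845). Glyat, glycine N-acyltransferase (ENSMUSG00000063683.12, chromosome 19, 12633308 to 12653911, plus strand), had 119, 109, 90.5 and 101 CPM in ALAS1/2-KO, against 157, 145 and 117 CPM in WT. ALAS1/2-KO replicates 2, 3 and 4 lay below every WT library and replicate 1 just above WT replicate 3. Its mean in ALAS1/2-KO was 0.754 times that in WT, with a 95% interval of 0.607 to 0.938 from limma before adjustment over genes (log2 fold change -0.41, SE 0.14, unadjusted p = 0.017, limma adjusted p = 0.128). On CPM set relative to listed reads, the log2 fold change of Glyat was -0.07, or -0.39 relative to the median of all genes.

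The other 3 ratios overlapped between the groups. Gnmt/Shmt1, a methyl acceptor route against the cytosolic glycine source, was 5.07, 5.78, 4.71 and 4.82 in ALAS1/2-KO and 5.09, 3.95 and 3.49 in WT. Agxt/Gldc was 1.67, 1.65, 1.9 and 1.93 in ALAS1/2-KO and 3.23, 2.89 and 1.65 in WT, with WT replicate 3 at the level of ALAS1/2-KO. Glyat/Agxt was 0.832, 0.583, 0.77 and 1.09 in ALAS1/2-KO and 1.12, 1.08 and 1.2 in WT. Their exact permutation p was 0.143, 0.143 and 0.0857, each adjusted to 0.167.

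Over the 7 libraries, the genes whose log2 CPM followed Glyat most closely among 8557 genes averaging 5 CPM or more were Cep20, Fnta and Sh3bgrl, with Pearson r = 0.989, 0.986 and 0.983. These points share the group difference and the scaling of each library. Sh3bgrl, the most abundant of the 3, had 62.1, 58, 53.6 and 58.6 CPM in ALAS1/2-KO and 78.8, 73 and 64.7 CPM in WT and did not pass either (limma adjusted p = 0.123).

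Slc25a38, the mitochondrial glycine carrier tied to heme synthesis in red cell precursors (ENSMUSG00000032519.11, chromosome 9, 120110374 to 120124504, plus strand), differed least. It had 11.2, 10.6, 9.5 and 11.3 CPM in ALAS1/2-KO, against 11.2, 12.3 and 9.58 CPM in WT. Each value rests on 215 to 369 reads, the fewest of the 9 genes. The log2 fold change was -0.05 (SE 0.12, 95% interval -0.33 to 0.24, limma adjusted p = 0.852), so a difference of up to 1.18-fold upward or down to 0.796 of the WT level lies inside the interval.

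**Figure D3:**
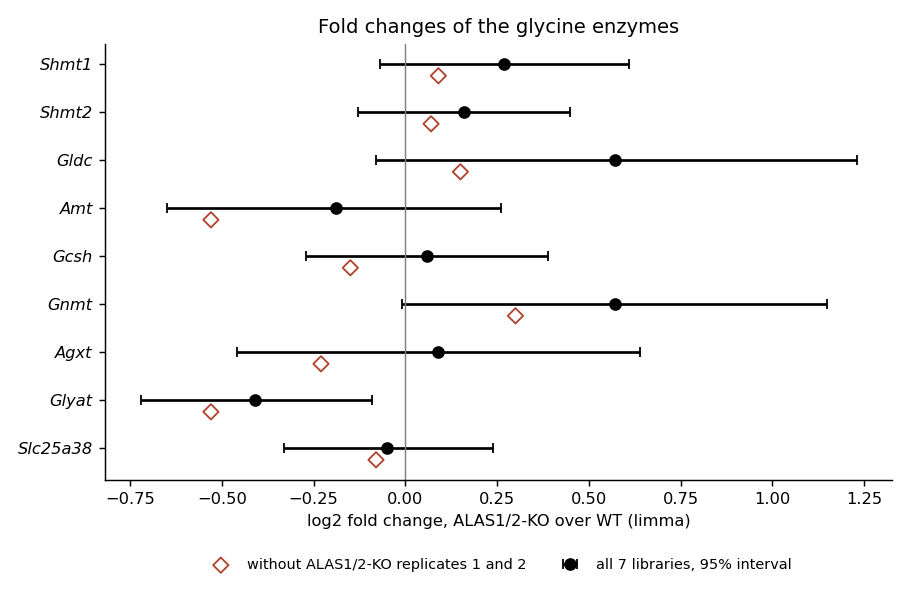
Log2 fold change of each glycine gene, ALAS1/2-KO over WT (horizontal axis), with black points and 95% limma intervals for all 7 libraries and open red diamonds for the fit without ALAS1/2-KO replicates 1 and 2. All intervals but that of Glyat, which ends at -0.09, include 0, and the diamonds lie left of the points for all 9 genes.

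Per kilobase of annotated exon, the order of the 9 genes differed between the groups only in the pairs Gcsh and Glyat, and Gldc and Amt. Gnmt was highest, at 690.1 ± 174 CPM per kb in ALAS1/2-KO and 470.4 ± 154 CPM per kb in WT (SD, n = 4 and 3), far above Agxt in second place, at 86.9 ± 25.8 CPM per kb in ALAS1/2-KO and 79.8 ± 14.9 CPM per kb in WT. Shmt2 and Shmt1 followed, at 52.5 ± 4.99 and 48.6 ± 7.71 CPM per kb in ALAS1/2-KO and 47.1 ± 6.45 and 40.1 ± 5.01 CPM per kb in WT. Their ranges over the libraries overlapped in both groups. Both genes were read in the same libraries, so that overlap does not compare them within a library. Glyat and Gcsh were next, at 29.8 ± 3.4 and 39.5 ± 6.72 CPM per kb in ALAS1/2-KO and 39.6 ± 5.79 and 37.6 ± 3.58 CPM per kb in WT, within the spread in WT. Amt and Gldc were low and close to each other in WT, at 13.9 ± 0.916 and 13.2 ± 2.18 CPM per kb, while in ALAS1/2-KO Amt stood at 12.5 ± 3.32 and Gldc at 20.5 ± 7.55 CPM per kb. Slc25a38 was lowest, at 5.94 ± 0.452 CPM per kb in ALAS1/2-KO and 6.15 ± 0.757 CPM per kb in WT.

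The ALAS1/2-KO libraries differed among themselves in a shared way. For 7 of the 9 genes, all but Glyat and Slc25a38, replicate 2 was highest, then replicate 1, then replicate 3, then replicate 4, an order chosen after these values were seen and found in 8.51% of all 12105 genes. The order is not particular to the glycine genes. Of the 7 called genes in the related lists described below, Cbs, Acsm3 and Slc38a3 had it too, while Chdh, Pemt, Acsm2 and Slc38a4 did not. The summed level of the 9 genes was 1464, 1778, 1195 and 1101 CPM in ALAS1/2-KO replicates 1 to 4 and 1353, 1084 and 914 CPM in WT replicates 1 to 3. The median SD on the log2 scale over the 9 genes was 0.25 in ALAS1/2-KO and 0.2 in WT, against 0.16 and 0.15 for the 6565 genes averaging 10 CPM or more. Without ALAS1/2-KO replicates 1 and 2, the log2 fold changes were 0.09 for Shmt1, 0.07 for Shmt2, 0.15 for Gldc, -0.15 for Gcsh, 0.30 for Gnmt, -0.23 for Agxt, -0.53 for Glyat and -0.08 for Slc25a38, with limma adjusted p from 0.0555 (Glyat) to 0.809 (Shmt2). Gcsh and Agxt thus changed sign in that fit.

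Markers of liver zones and of other liver cells also differed between these libraries. The summed level of 10 periportal markers, genes of hepatocytes near the portal vein, was 6069.5, 6761, 5692 and 5379 CPM in ALAS1/2-KO replicates 1 to 4 and 6266, 4238 and 3618 CPM in WT replicates 1 to 3. This sum followed the order of Gnmt and Shmt1 in both groups, but it rests on its abundant genes. Of the 10 markers taken singly, 7 were highest in ALAS1/2-KO replicate 2 and only 2, Hal and Ass1, had the whole order seen for the glycine genes, while Pck1 and Arg1 were highest in replicate 1 and lowest in replicate 2. The 9 listed of 10 pericentral markers summed to 2888 to 4567 CPM in ALAS1/2-KO, lowest in replicate 2, and 4338 to 6156 CPM in WT. This sum rests largely on Cyp2e1, which was also lowest in replicate 2, while Lgr5 was highest there among the ALAS1/2-KO libraries. Of the 9, 3 had a higher mean log2 CPM in ALAS1/2-KO, Cyp1a2, Gulo and Cyp2c29. In each zone list 1 gene was called, Cyp2f2 (log2 fold change 1.57, limma adjusted p = 0.00338) and Lgr5 (-1.35, limma adjusted p = 0.0355). Endothelial markers (8 of 8 listed) summed to 79.3, 191, 344 and 269.6 CPM in ALAS1/2-KO replicates 1 to 4 and 351, 328 and 415 CPM in WT. Stellate cell markers (8 of 8) summed to 41.9, 87.9, 203 and 144 CPM in ALAS1/2-KO and 329, 183 and 297 CPM in WT. In both lists, as in the Kupffer list, ALAS1/2-KO replicate 1 was lowest and replicate 2 next. The 2 listed of 7 bile duct markers summed to 2.72, 5.35, 3.97 and 3.89 CPM in ALAS1/2-KO and 12.1 to 21.1 CPM in WT. This gap lay in Spp1, at 1.09 to 3.51 CPM in ALAS1/2-KO and 10.9 to 16.7 CPM in WT. The other, Sox9, overlapped, at 1.63 to 2.08 CPM in ALAS1/2-KO and 1.2 to 4.3 CPM in WT. Neither the bile duct sum nor the red cell sum set ALAS1/2-KO replicates 1 and 2 apart from replicates 3 and 4. The 3 listed of 7 lymphocyte markers summed to 6.05, 19, 29 and 26.6 CPM in ALAS1/2-KO and 22.3 to 34.7 CPM in WT. Mitochondrially encoded genes took 16.8 to 27.3% of listed reads in ALAS1/2-KO, lowest in replicate 1, and 31.9 to 43.2% in WT. Their part in the values of the glycine genes was not tested, and in bulk RNA fewer cells of a type and less RNA per cell cannot be told apart.

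**Figure D4:**
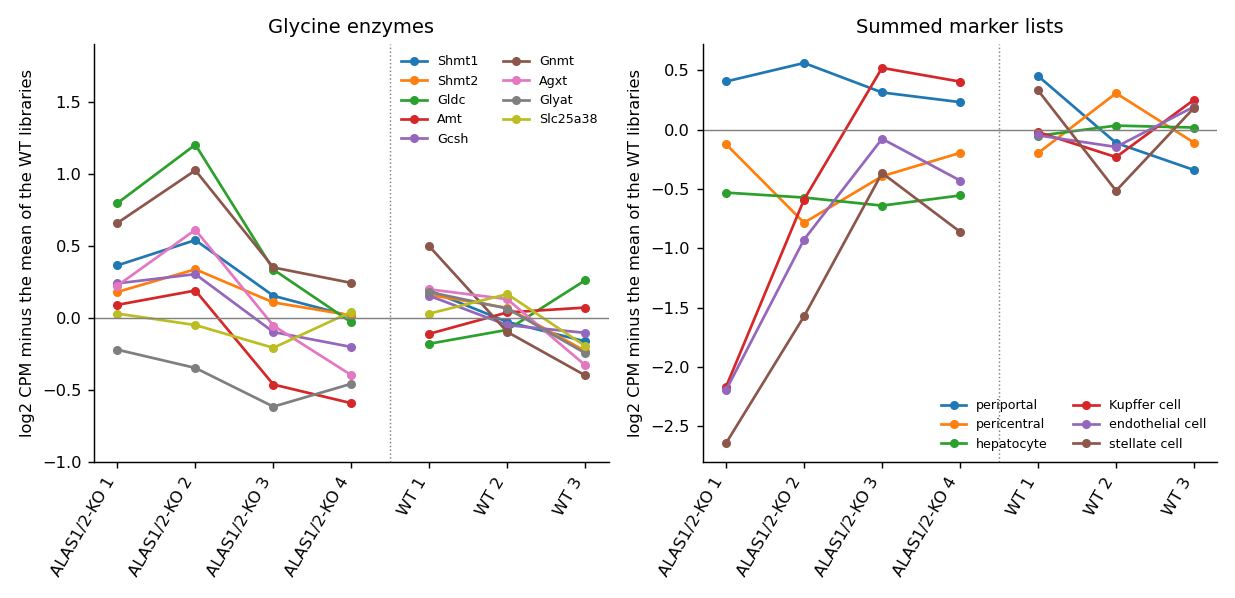
Log2 CPM of each glycine gene (left) and of summed marker lists (right) in each library, minus the mean of the WT libraries, where lines only join the points of a gene or list within a group. Shmt1, Shmt2, Gldc, Amt, Gcsh, Gnmt and Agxt peak in ALAS1/2-KO replicate 2 among the ALAS1/2-KO libraries, as the periportal sum does, the hepatocyte sum follows Alb, and the Kupffer, endothelial and stellate lists are lowest in ALAS1/2-KO replicate 1.

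Around these enzymes, 8 lists of related genes held 92 tested genes, of which 7 changed, 5 higher and 2 lower in ALAS1/2-KO (7.61%, against 5.1% of all genes). In the other genes of serine and glycine supply, 1 of 12 rose and 0 fell. It was Chdh, choline dehydrogenase, the first step from choline to betaine, which feeds the chain to sarcosine and glycine. Chdh had 86.3, 81.4, 69.3 and 71.6 CPM in ALAS1/2-KO and 49.8, 53.6 and 54.4 CPM in WT (log2 fold change 0.55, SE 0.11, limma adjusted p = 0.0299). The list's median log2 fold change was 0.22. Of 11 genes of the methionine cycle, whose surplus methyl groups GNMT uses up, 1 rose and 1 fell, with a median of 0.17. Pemt, which spends methyl groups on phosphatidylcholine, had 76.7, 92.3, 108 and 84.3 CPM in ALAS1/2-KO and 47.1, 60.3 and 41.4 CPM in WT (log2 fold change 0.87, SE 0.16, limma adjusted p = 0.0256). Cbs, which joins homocysteine and serine, had 262, 291, 195 and 169.9 CPM in ALAS1/2-KO and 474, 418 and 379 CPM in WT (log2 fold change -0.91, SE 0.19, limma adjusted p = 0.0358).

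On the routes to products made from glycine, 18 genes with a median log2 fold change of 0.04, 1 was higher and 1 lower. Many steps on these routes, such as those of Gclc and Ppat, do not use glycine themselves. Both called genes belong to the medium-chain acyl-CoA synthetases, which activate acids for glycine conjugation. Acsm3 had 56.5, 57.8, 53.1 and 48.9 CPM in ALAS1/2-KO and 33.5, 33.1 and 29 CPM in WT (log2 fold change 0.76, SE 0.10, limma adjusted p = 0.00703). Acsm2 had 2.45, 1.66, 2.2 and 2.11 CPM in ALAS1/2-KO and 6.37, 6.47 and 7.03 CPM in WT (log2 fold change -1.63, SE 0.19, limma adjusted p = 0.00385). The Acsm genes resemble each other, so reads may have been split between them. In a list of 11 carriers, with a median of 0.43, 2 rose and 0 fell, both of the SLC38 family of amino acid transporters. The list was drawn up for glycine and serine but also holds Slc25a37 and Slc25a39, mitochondrial carriers of iron and glutathione. Slc38a3 had 1557, 2080.4, 1399.5 and 1266 CPM in ALAS1/2-KO and 1014, 878 and 715 CPM in WT (log2 fold change 0.85, SE 0.19, limma adjusted p = 0.0424), and Slc38a4 had 768, 836, 728 and 816 CPM in ALAS1/2-KO and 629.7, 503 and 482 CPM in WT (log2 fold change 0.56, SE 0.12, limma adjusted p = 0.0399).

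At an unadjusted limma p under 0.05, 23.7% of all genes passed. On the routes to products made from glycine 9 of 18 genes passed, Gclc and Ppat among them, so this does not count genes that use glycine. Among carriers 6 of 11 passed, in the methionine cycle 4 of 11 and in serine and glycine supply 2 of 12. The other 4 lists had 0 genes called by limma. They were glyoxylate handling (median log2 fold change -0.07, 3 of 7 at that unadjusted p), the folate cycle (0.13, 3 of 15), the lipoyl group and its enzymes (0.12, 1 of 9) and targets of ATF4 in the amino acid response (-0.13, 2 of 14). Limma voom called 1 gene of the folate list and 0 of the other 3. The 2 most abundant genes of each list are given. In glyoxylate handling, Prodh2 averaged 241 ± 11.2 CPM in ALAS1/2-KO and 180.3 ± 29.6 CPM in WT, and Hao1 72.4 ± 10 CPM in ALAS1/2-KO and 106 ± 27.2 CPM in WT (SD, n = 4 and 3, limma adjusted p = 0.0929 and 0.144). In the folate cycle, Aldh1l1 averaged 671 ± 164 CPM in ALAS1/2-KO and 493 ± 159 CPM in WT, and Ftcd 521 ± 119 CPM in ALAS1/2-KO and 323 ± 20.7 CPM in WT (limma adjusted p = 0.306 and 0.0623). Dlst averaged 118 ± 11.3 CPM in ALAS1/2-KO and 94.3 ± 4.12 CPM in WT, and Dld, the lipoamide dehydrogenase that completes glycine cleavage, 64.2 ± 7.17 CPM in ALAS1/2-KO and 59.1 ± 5.73 CPM in WT (limma adjusted p = 0.126 and 0.58). Atf5 averaged 174 ± 31.5 CPM in ALAS1/2-KO and 209.8 ± 22.5 CPM in WT, and Gdf15 171 ± 57.9 CPM in ALAS1/2-KO and 185 ± 19.4 CPM in WT (limma adjusted p = 0.308 and 0.708). Of 9 heme synthesis genes, 0 rose and 1 fell, which was Alas2, with a median log2 fold change of -0.06.

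Only Acsm2 and Acsm3 among the 7 called genes passed in each of the 7 fits that left out a library. Pemt passed in 3, Chdh, Cbs and Slc38a4 in 2, and Slc38a3 in 1. Without WT replicate 2 the limma adjusted p was 0.128 for Chdh, 0.153 for Cbs, 0.187 for Slc38a4 and 0.167 for Slc38a3. Without WT replicate 1 it was 0.0966 for Chdh, 0.0849 for Pemt, 0.121 for Cbs and 0.074 for Slc38a3, and without WT replicate 3 it was 0.0598, 0.0655, 0.0703 and 0.107 for these 4 and 0.0973 for Slc38a4. Leaving out ALAS1/2-KO replicate 2 ended the calls of Chdh, Pemt, Slc38a4 and Slc38a3 (0.053 to 0.0815), replicate 3 those of Cbs, Slc38a4 and Slc38a3 (0.065 to 0.0718) and replicate 4 those of all 5 (0.0556 to 0.0924). On CPM set relative to listed reads, Cbs was also lost, at a log2 fold change of -0.58 (limma adjusted p = 0.0653).

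**Figure D5:**
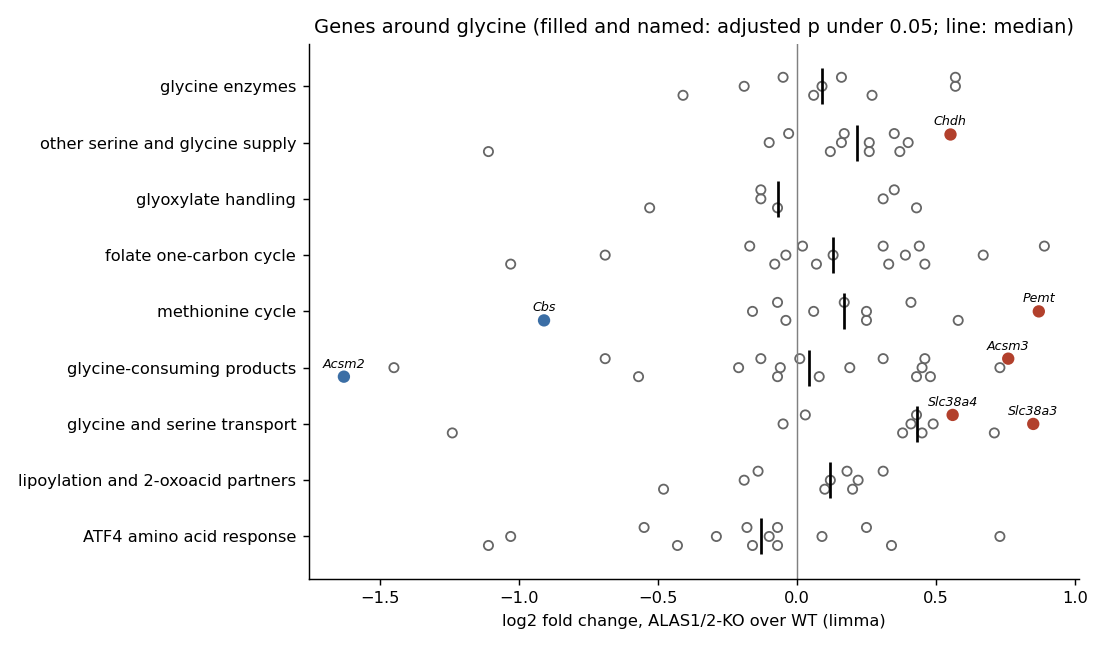
Log2 fold change, ALAS1/2-KO over WT (horizontal axis), of each tested gene in the glycine enzymes and in 8 related lists, with filled and named points for limma adjusted p under 0.05, open points for the rest and a black line at each list's median. The 9 glycine enzymes are all open, with a median of 0.09, and the called genes lie in 4 of the other lists.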

How the data were processed

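The authors deposited log2 values of CPM for 12151 genes in 7 columns. Per the submitters' processing notes, cutadapt, HISAT2 and the mm10 build were used; their versions, and the counter, annotation and strand setting, were not given in the sources used here. Each deposited log2 value, taken as a power of 2, was a shared floor of 0.0676 CPM plus a whole number of reads within 0.01 reads, in at least 99.992% of genes per library. CPM printed are the values with that floor taken off, and 1 read was worth 0.0293 to 0.0522 CPM. Scaled library sizes were 1.069 to 1.184 times the listed reads in ALAS1/2-KO and 0.801 to 1.003 times in WT.

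Groups and replicate numbers came from sample titles. The test, on genes with at least 1 CPM in 3 or more libraries, was limma 3.58.1 under R 4.3.3 (intensity trend, robust moderation, two-sided, Benjamini-Hochberg, called at adjusted p under 0.05). Fold changes include the deposited floor and are ALAS1/2-KO over WT. Ratios of 2 genes were tested by exact permutation over 35 regroupings, and 7 of 8 intended ratios could be computed, since Phgdh expression is not analysed here. Exon lengths and positions came from GENCODE M21. The fit and the read recovery were tested on simulated data. The 9 genes, the lists, the ratios and the alternatives were chosen with earlier results of these data known. Named are all members, Alas1 and Alas2, up to 4 called genes per pathway list by p or else its 2 most abundant, and the 3 genes most correlated with the member of smallest p. A gene of the methionine cycle list is not reported here and is left out of its counts. Alternatives were other pseudocounts, filters, scalings and limma settings, a replicate block, and leaving out libraries. Whether replicates are separate mice is not stated, so the p-values reflect only how these libraries vary, and that variation may be technical. No 2 libraries agreed within counting noise.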

Additional observations from a re-analysis of the deposited data

How the results depend on the processing

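Of the 9 glycine genes 0 were called under most settings, including each of the 7 fits that left out a library (lowest and highest count 0). Exceptions were 3 with CPM rescaled to listed reads (Gnmt, Shmt1 and Shmt2, adjusted p = 0.0274, 0.0295 and 0.0281) and 1 without ALAS1/2-KO replicates 1 and 2 together (Amt). The rescaling moves the median of all genes to 0.32, and relative to it Gnmt, Shmt1 and Shmt2 stood at 0.59, 0.29 and 0.18. The count of all genes called was 617 (57.1% higher), against 2735 with that rescaling (92.6% higher), 306 without the intensity trend, 1130 without ALAS1/2-KO replicates 1 and 2 (565 higher) and 100 to 802 without a library. With scaling that left out mitochondrial genes and the 20 most abundant, 562 were called and 42.3% of them were higher. The count in the 8 pathway lists was 7, against 33, 2, 13 and 2 to 9 in the same order. With the replicate number as a block, 72 genes, 0 pathway genes and 0 glycine genes were called. Same-numbered libraries did not deviate together (correlations -0.03, 0.05 and 0.18), so the numbers were not taken as pairs.

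Signs turned for Amt (0.14 rescaled), Gcsh (0.00 with scaling without abundant genes, -0.15 without ALAS1/2-KO replicates 1 and 2, -0.02 to 0.15 without a library), Agxt (-0.23 without those 2 replicates, -0.08 to 0.26 without a library), Slc25a38 (0.29 rescaled, -0.14 to 0.03 without a library), Dld (-0.01 without those 2 replicates), Atf5 (0.05 rescaled) and Gdf15 (0.18 rescaled). The Gldc/Amt difference ran from 0.69 to 0.86 without a library, where the smallest exact p the design allows is 0.0667 or 0.1. The cause was not tested for any of these. At 4 and 3 libraries, all intervals but that of Glyat include 0.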
